A study of Rattus norvegicus with 10 samples.

Results

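DNA methylation and histone deacetylase genes were followed in 10 mammary tumours of female Sprague-Dawley rats. The set was defined by name as 9 genes: the DNA methyltransferases Dnmt1, Dnmt3a and Dnmt3b, the methyl-CpG binding domain genes Mbd1, Mbd2 and Mbd3, and the class I histone deacetylases Hdac1, Hdac2 and Hdac3. Probes were assigned to a gene by matching their transcript identifiers to the RefSeq gene table. This placed 11 of the 41012 probes of the array on 8 of the 9 genes. Dnmt1, Hdac2 and Hdac3 had a pair of probes each and the other 5 genes had 1 probe. Dnmt3b had no matched probe and was not analysed here.

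DNA methyltransferases place methyl groups on cytosines that stand before a guanine (CpG sites). Dnmt1 copies the pattern onto the new strand after DNA replication, while Dnmt3a and Dnmt3b methylate new sites. Proteins with a methyl-CpG binding domain are named for the fold that recognises methylated CpG, and several of them bring histone deacetylases to chromatin. Hdac1 and Hdac2 remove acetyl groups from histones as the catalytic subunits of the NuRD, Sin3 and CoREST complexes, and Hdac3 does so in the NCoR complex. Mbd2 and Mbd3 are alternative subunits of NuRD, and mammalian Mbd3 has little affinity for methylated CpG.

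The tumours came from daughters of dams on a Western-style diet, rich in fat and poor in fibre and trace elements (WD, 5 tumours, written WD1 to WD5), or of dams on a control diet (CD, 5 tumours, CD1 to CD5). The diets of the dams covered gestational days 12 to 20 and again postnatal days 1 to 21. After weaning, the daughters of both groups ate control diet. At the age of 3 weeks every daughter was given 1 intraperitoneal dose of 50 mg/kg N-methyl-N-nitrosourea, an alkylating carcinogen that induces mammary tumours in rats. The tumours, of tubular or papillary type, were measured at the age of 110 days. Neither dam nor litter is given for any tumour, so the p-values measure only the spread between tumours.

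Each tumour was measured on 1 single-colour Agilent array. A level is the log2 processed signal of a probe minus the 75th percentile of its array, taken over the measuring spots. A level of 0 is thus the 75th percentile, and levels of different probes are not comparable. The 75th percentile itself is called array brightness here and is used on the log2 scale. Between 16672 and 21887 probes were well above background in WD tumours and between 18571 and 21441 in CD tumours. Of 13 epithelial marker genes of the labelled tissue, 12 were measured, and the mean level over these 12 lay between 2.85 and 3.34 in WD tumours and between 3.21 and 3.78 in CD tumours. Of 6 adipocyte markers on the array, none passed the filter on dim probes.

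The 8 genes lie on 6 rat chromosomes. On the GRCr8 assembly Dnmt1 spans chr8:27716797-27763405, Dnmt3a chr6:32507316-32621678 and Mbd3 chr7:9961053-9970845. Mbd1, at chr18:70145093-70159744, Mbd2, at chr18:66449196-66516112, and Hdac3, at chr18:30021847-30041061, share a chromosome. Hdac1 spans chr5:147138328-147165387 and Hdac2 chr20:42101815-42126486. These positions come from RefSeq and not from the arrays.

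Promoter sequences are shown for Mbd3 with Hdac3 and for Hdac1 with Hdac2. On the brighter probe of each gene, these pairs had the highest positive correlations across the tumours. Each sequence is the 250 bases before the start site in the RefSeq promoter table (GRCr8). It is read 5′ to 3′ on the strand of the gene, with CpG sites in capitals. Mbd3 is read from chr7:9963390-9963639 (plus strand), Hdac3 from chr18:30041026-30041275 (minus strand), Hdac1 from chr5:147165388-147165637 (minus strand) and Hdac2 from chr20:42102877-42103126 (plus strand). The windows of Mbd3 and Hdac2 lie inside the gene spans given above, and that of Hdac3 overlaps the end of its span, so they precede a start site that is not the outermost one.
Mbd3: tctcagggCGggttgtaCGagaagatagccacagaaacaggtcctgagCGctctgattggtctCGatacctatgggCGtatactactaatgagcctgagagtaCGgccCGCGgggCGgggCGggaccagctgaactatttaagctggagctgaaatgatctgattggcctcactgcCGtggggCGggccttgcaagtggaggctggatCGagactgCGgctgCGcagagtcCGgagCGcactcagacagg
Hdac3: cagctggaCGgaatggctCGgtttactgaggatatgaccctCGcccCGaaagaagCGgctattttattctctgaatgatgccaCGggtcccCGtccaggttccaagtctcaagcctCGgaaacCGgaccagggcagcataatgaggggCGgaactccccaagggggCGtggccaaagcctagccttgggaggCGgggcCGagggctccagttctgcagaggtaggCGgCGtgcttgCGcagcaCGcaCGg
Hdac1: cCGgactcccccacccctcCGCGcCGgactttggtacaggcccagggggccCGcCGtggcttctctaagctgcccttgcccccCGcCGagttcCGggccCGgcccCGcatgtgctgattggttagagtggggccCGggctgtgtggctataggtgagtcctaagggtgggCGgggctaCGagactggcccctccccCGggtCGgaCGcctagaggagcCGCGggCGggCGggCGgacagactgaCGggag
Hdac2: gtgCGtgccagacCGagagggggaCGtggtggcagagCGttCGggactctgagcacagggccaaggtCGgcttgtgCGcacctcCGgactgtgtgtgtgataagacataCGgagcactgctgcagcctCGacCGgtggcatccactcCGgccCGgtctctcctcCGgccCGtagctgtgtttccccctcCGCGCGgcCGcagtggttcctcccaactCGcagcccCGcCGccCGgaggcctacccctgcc

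All 8 windows were richer in CpG than the median window. Mbd3 had 17 CpG sites, Hdac3 18, Hdac1 23 and Hdac2 23, against a median of 5 over the 33469 windows of the table. Mbd2 had 33, Mbd1 24, Dnmt3a 18 and Dnmt1 9. The GC content ran from 59.2% in Mbd3 to 74.4% in Mbd2, against a median of 51.2%. The GC box GGGCGG, searched on both strands, was in 6 of the 8 windows, all but those of Dnmt1 and Mbd1, and in 30.5% of all windows. CCAAT was in the windows of Mbd1, Mbd3 and Hdac1 and in 34.0% of all windows. TATAAA, which 12.9% of all windows hold, and the E2F-type motif TTTCGCGC, which 0.248% hold, were in none of the 8. The GC box overlaps CpG sites, so its count is not independent of CpG content. Methylation of these windows was not measured.

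The maintenance methyltransferase Dnmt1 did not differ detectably with maternal diet. Its brighter probe (A_44_P388853) had levels of -0.06, 1.67, 0.70, 0.55 and 0.15 in WD1 to WD5, against 0.85, -0.02, 0.58, -0.10 and 0.57 in CD1 to CD5. WD2 stood above all other tumours, and the rest of the groups overlapped. The difference, WD minus CD, was 0.23 ± 0.32 on the log2 scale (SE, 95% interval -0.47 to 0.92, limma adjusted p = 0.754). Without WD2 it was -0.04. The dimmer probe (A_44_P125681) gave -0.25 ± 0.27 and was well above background in 4 of 5 WD and 5 of 5 CD tumours. The 2 probes of Dnmt1 varied almost independently over the tumours, with a Pearson r of 0.057. Over the 3632 probe pairs of the 2442 genes with several measured probes the median r was 0.486 and the quartiles were 0.114 and 0.741, so the Dnmt1 values depend on the probe.

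Dnmt3a, which methylates new sites, was the steadiest of the 8 genes. Its levels were -1.68, -1.41, -1.55, -1.69 and -1.98 in WD1 to WD5, against -1.64, -1.42, -1.73, -1.42 and -1.64 in CD1 to CD5. Its SD over the 10 tumours, 0.177, was larger than that of only 5.59% of all genes tested. The difference was -0.09 ± 0.15 (SE, 95% interval -0.41 to 0.23, limma adjusted p = 0.783).

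Mbd1, the reader with a further zinc-finger contact to unmethylated CpG, was close to background. Its probe was well above background in 2 of 5 WD and 4 of 5 CD tumours. Levels were -1.55, -2.12, -3.00, -2.78 and -2.30 in WD1 to WD5, against -2.20, -1.70, -2.59, -2.02 and -1.76 in CD1 to CD5. WD1 had the highest level and WD3 the lowest, and the groups overlapped. The difference was -0.30 ± 0.28 (SE, 95% interval -0.90 to 0.31, limma adjusted p = 0.626). It moved with single tumours and with the processing, from -0.50 without WD1 to -0.13 without WD3, and was -0.0015 with normexp background correction and -0.50 with quantile normalization.

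Mbd2, the NuRD subunit that binds methylated CpG, was nearly level across the tumours. Its levels were 4.50, 3.95, 4.39, 4.34 and 4.55 in WD1 to WD5, against 4.42, 4.24, 4.51, 4.48 and 4.75 in CD1 to CD5. WD2 was lowest and CD5 highest. The difference was -0.13 ± 0.16 (SE, 95% interval -0.48 to 0.21, limma adjusted p = 0.705), and the SD over all tumours, 0.210, was larger than that of 11.9% of the genes tested.

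Mbd3, the other NuRD subunit of this family, had the largest diet difference of the 8 genes when each is taken by its brighter probe and without array brightness in the fit. Its levels were 2.26, 1.30, 1.76, 1.79 and 2.39 in WD1 to WD5, against 2.53, 2.80, 2.18, 2.71 and 2.78 in CD1 to CD5. WD2, WD3 and WD4 lay below every CD tumour, while WD1 and WD5 lay above CD3 and below the other 4. Mbd3 averaged 1.90 ± 0.44 in WD tumours and 2.60 ± 0.26 in CD tumours (SD, n = 5 each), a difference of -0.70 ± 0.22 (SE, 95% interval -1.18 to -0.21), or a 1.62-fold lower signal in WD. The limma p was 0.00863 before and 0.205 after adjustment over the 16765 genes tested, so Mbd3 did not pass the threshold of an adjusted p under 0.05. The exact two-sided permutation test on Mbd3 alone gave p = 0.0238. Within the 3 slides, each of which held both groups, the difference was -1.01, -0.70 and -0.23. Slide 1 held WD1, WD2 and CD2, slide 2 WD3, WD4, CD3 and CD5, and slide 3 WD5, CD1 and CD4. On slides 1 and 3 the difference thus rests on a single array in a group.

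Hdac1, catalytic in NuRD, Sin3 and CoREST, leaned the other way. Its levels were 3.69, 4.38, 4.76, 4.62 and 4.10 in WD1 to WD5, against 3.97, 3.63, 4.14, 3.46 and 4.07 in CD1 to CD5. WD2, WD3 and WD4, the 3 tumours with the lowest Mbd3, lay above every CD tumour, and WD1 and WD5 lay among the CD tumours. The mean was 4.31 ± 0.43 in WD and 3.85 ± 0.29 in CD tumours (SD, n = 5 each), a difference of 0.46 ± 0.22 (SE, 95% interval -0.04 to 0.95, limma adjusted p = 0.352, exact permutation p = 0.0873). Within slides it was 0.40, 0.59 and 0.38, where the first and last rest on a single array in a group.

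Hdac2, the close paralog that shares these complexes, did not differ detectably. Its brighter probe (A_44_P139916) had levels of 3.90, 4.42, 4.53, 4.56 and 4.34 in WD1 to WD5, against 4.34, 3.67, 4.70, 4.09 and 4.48 in CD1 to CD5. The highest and the lowest tumour, CD3 and CD2, were both in the CD group. The difference was 0.09 ± 0.21 (SE, 95% interval -0.37 to 0.55, limma adjusted p = 0.859), and it was -0.05 without CD2. The dimmer probe (A_44_P314206) gave -0.12 ± 0.20 and, as for Dnmt1, followed its partner little (r = 0.067).

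Hdac3, the deacetylase of the NCoR complex, had a lower mean in WD tumours on both of its probes. On the brighter probe (A_42_P768766) the levels were 2.04, 1.66, 2.36, 1.98 and 2.26 in WD1 to WD5, against 2.63, 2.55, 2.37, 2.52 and 2.38 in CD1 to CD5. The groups did not overlap, although WD3 came within 0.00398 of CD3. The difference was -0.43 ± 0.16 (SE, 95% interval -0.77 to -0.08), or 1.34-fold lower in WD, with a limma p of 0.0190 before and 0.244 after adjustment. The exact two-sided permutation p of 0.0079 is the smallest that 5 tumours against 5 can give. The dimmer probe (A_44_P398014) had levels of -0.39, -0.54, -0.45, -0.63 and -0.01 in WD1 to WD5, against 0.36, 0.53, -0.18, 0.52 and 0.30 in CD1 to CD5. Of these WD tumours, WD5 alone lay above CD3, and all 5 lay below the other 4 CD tumours. Its difference was -0.71 ± 0.18, 1.64-fold lower, with an adjusted p of 0.173 in the limma fit over the 19726 kept probes and an exact permutation p of 0.0159. The 2 Hdac3 probes followed each other (r = 0.813, above 82.7% of within-gene probe pairs).

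**Figure D1:**
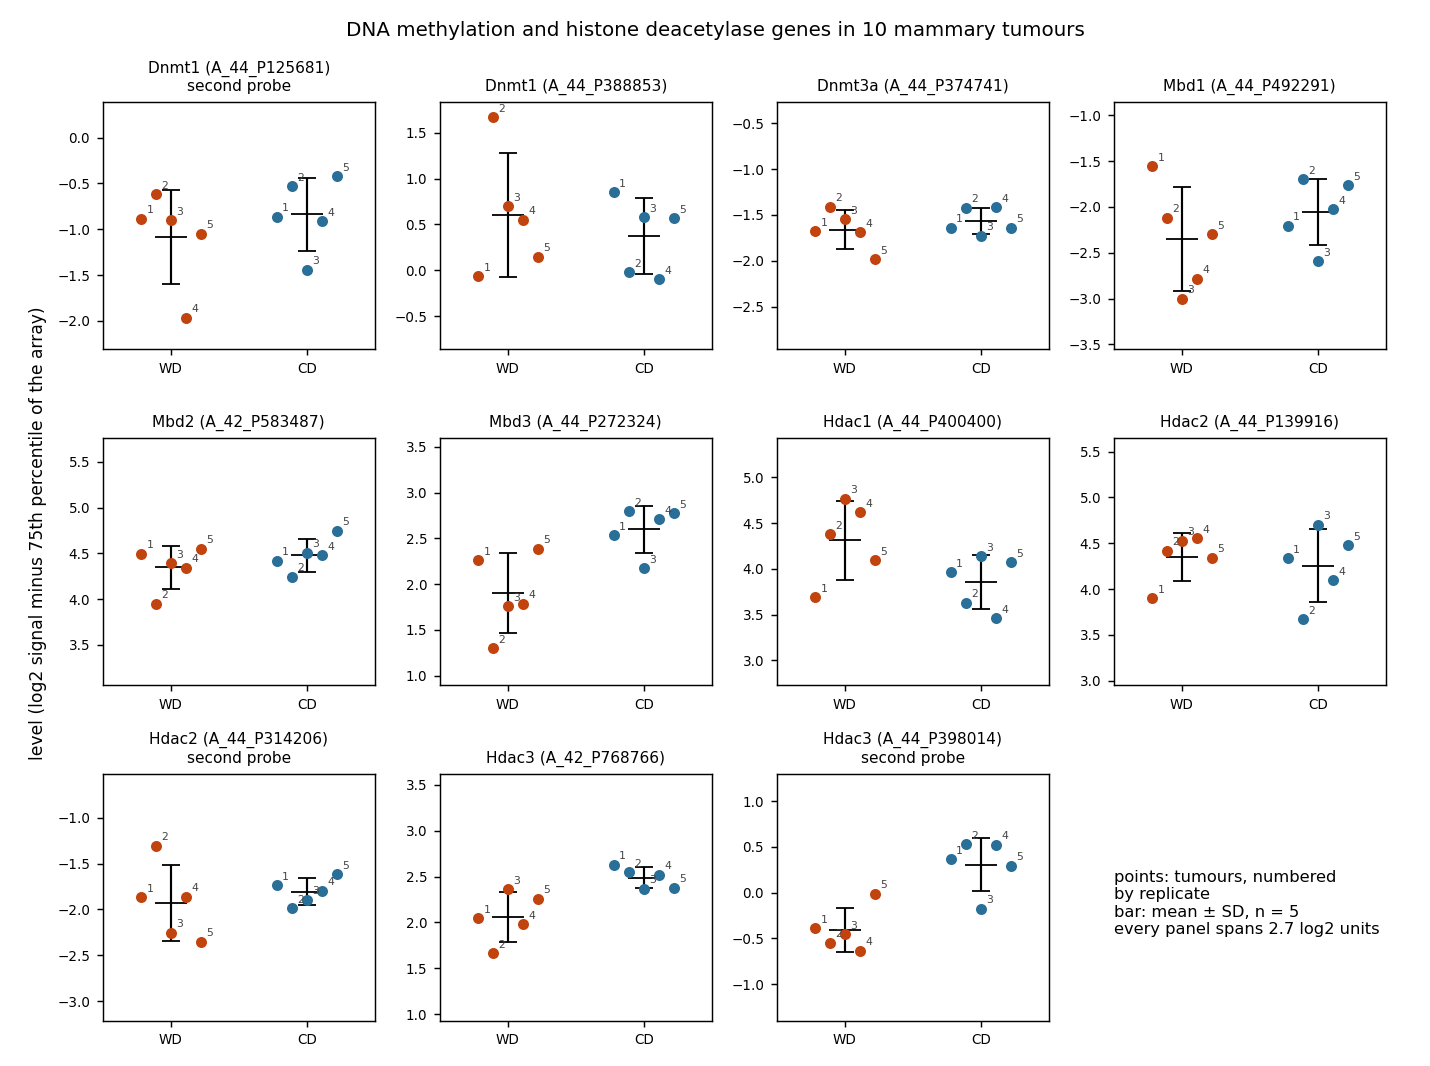
Level of each of the 11 probes (log2 signal minus the 75th percentile of the array) in WD tumours (left, orange) and CD tumours (right, blue), 5 points per group numbered by replicate, with bars for the mean ± SD. Every panel spans the same number of log2 units: Hdac3 separates the groups on its brighter probe, Mbd3 does so except for WD1 and WD5 against CD3, and Dnmt3a and Mbd2 vary little.

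None of the 8 genes passed the adjusted threshold between the diets, and neither did any other gene (0 of 16765, 0%). At an unadjusted limma p under 0.05 the count was 2 of 8, Mbd3 and Hdac3, both lower in WD. With slide as a block it was 3 of 8, against 2911 of all 16765 genes. Hdac1 was then counted too, at 0.48 ± 0.18 (SE, 95% interval 0.08 to 0.87, limma adjusted p = 0.226). Without WD1 the count was also 3 of 8, against 2853 of all genes. With all tumours and no block, 2599 (15.5%) of all genes had an unadjusted limma p under 0.05, 7.71% lower and 7.8% higher in WD. The exact permutation test gave 2386. Groups that did not overlap were found for 1 of the 8 genes, Hdac3, and for 3.64% of all genes (2.3% lower and 1.34% higher in WD). The mean was lower in WD for 5 of the 8 genes, against 48.6% of all genes, and the median difference was -0.11, against 0.01 over all genes. The number of tumours limits the precision, and the median residual SD over all genes was 0.344.

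The arrays differed in brightness, and brightness went partly with diet. The 75th percentile of spot intensity was 112, 81.0, 72.8, 98.6 and 170 in WD1 to WD5, against 188, 204, 85.0, 190 and 226 in CD1 to CD5. WD1 to WD4 and CD3 were the 5 dimmest arrays, and WD5 was dimmer than the other 4 CD arrays. On the log2 scale brightness averaged 6.67 ± 0.48 in WD and 7.40 ± 0.57 in CD (SD, n = 5 each), a difference of -0.73 (exact permutation p = 0.0714).

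Mbd3 followed array brightness more closely than the other 7 genes did. The 4 brightest arrays, CD5, CD2, CD4 and CD1, had the 4 highest Mbd3 levels, and the 3 dimmest arrays, WD3, WD2 and CD3, were among the 5 with the lowest. The slope was 0.71 ± 0.14 log2 units of Mbd3 per log2 unit of brightness (SE, limma adjusted p = 0.0501). In the limma fit over all kept probes the adjusted p was 0.0471. With brightness taken as the median raw signal of the array the Mbd3 slope was 0.35 ± 0.63 (limma adjusted p = 0.960), and that of Hdac1 was -0.15 ± 0.55. These slopes thus depend on how brightness is measured. Pearson's r was 0.892 (permutation p = 0.00026) and Spearman's rho was 0.964 (permutation p = 7e-05). Adjusted over all genes these p-values were 0.0923 and 0.0745. Leaving out the 2 arrays farthest from the median brightness, WD2 and WD3, left r at 0.882. Within the WD tumours r was 0.816 and within the CD tumours 0.950. An r at least as far from 0 was found for 89 genes (0.531% of those tested), and the median size of r over all genes was 0.388.

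Hdac1 had a slope on brightness of -0.46 ± 0.17 (SE, limma adjusted p = 0.147), an r of -0.686 and a rho of -0.782 (permutation p = 0.0351 and 0.0108, adjusted 0.200 and 0.129). Without WD2 and WD3 its r was -0.478. The brighter Hdac3 probe had a slope of 0.29 ± 0.14, an r of 0.612 and a rho of 0.661, with r at 0.255 within WD and 0.456 within CD tumours. The dimmer Hdac3 probe had a slope of 0.64 ± 0.13 (adjusted p = 0.0507 over all kept probes in limma), so the probes of Hdac3 differed in this respect. Mbd1 had an r of 0.624 and a rho of 0.648. Dnmt1 had an r of -0.484, Hdac2 of -0.484, Mbd2 of 0.453 and Dnmt3a of -0.026. The r of Dnmt3a had opposite signs in the groups, at -0.931 within WD and 0.566 within CD tumours. Those of Dnmt1 and Hdac2 are from the brighter probe and depend on it. The slope of Dnmt1 was -0.42 ± 0.24 on the brighter and 0.32 ± 0.21 on the dimmer probe. For Hdac2 it was -0.25 ± 0.16 on the brighter and -0.00075 ± 0.17 on the dimmer probe.

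**Figure D2:**
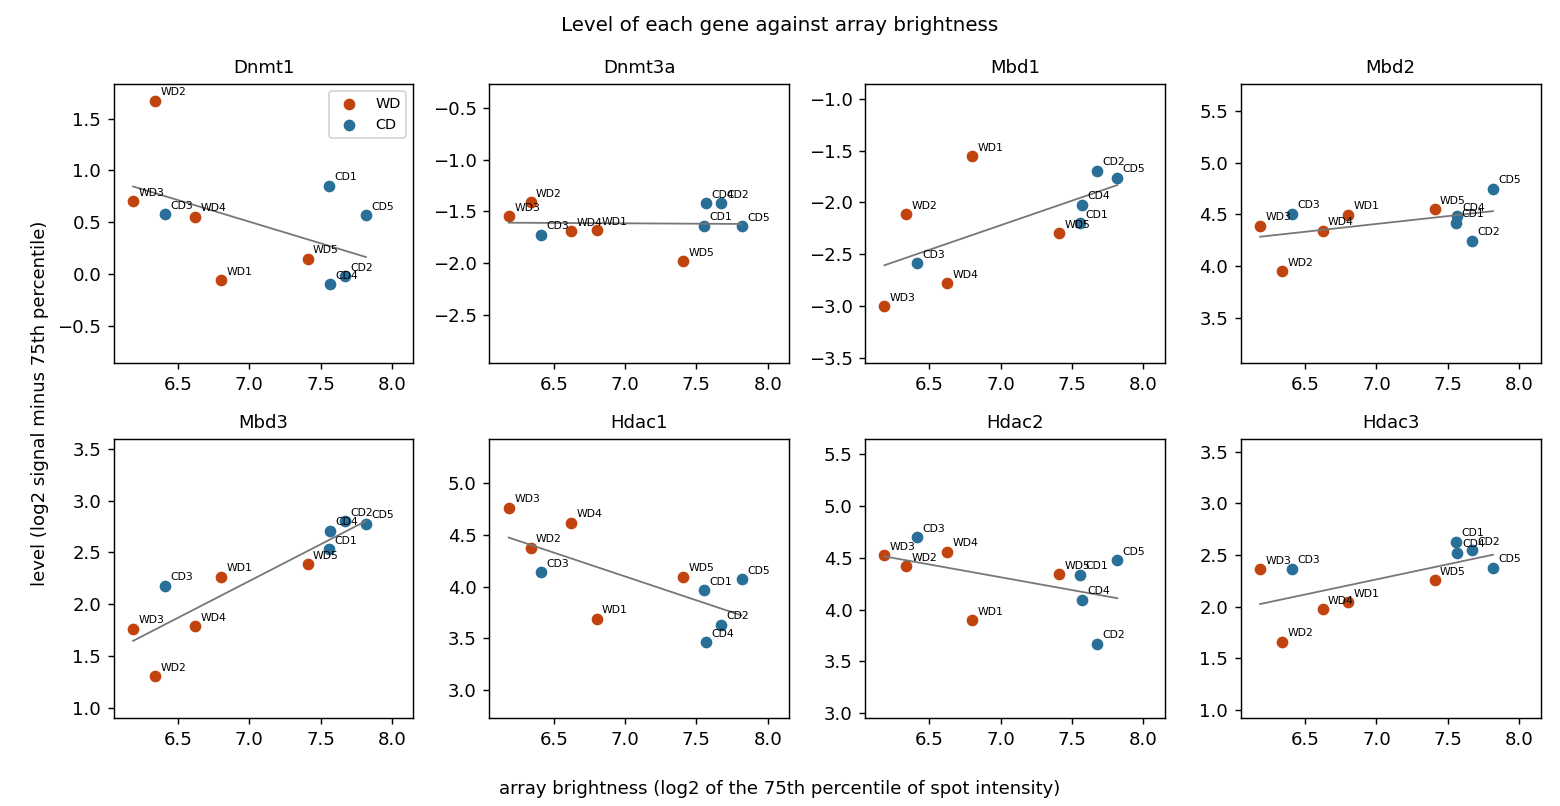
Level of each of the 8 genes (vertical, log2 signal minus the 75th percentile) against array brightness (horizontal, log2 of the 75th percentile of spot intensity) in 5 WD (orange) and 5 CD (blue) tumours, with the limma slope as a line. Mbd3 climbs along the line with r = 0.892, Hdac1 falls with r = -0.686, and Dnmt3a is flat.

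In the limma fit over genes, none of the 8 genes passed an adjusted p under 0.05 for the brightness slope. Of all genes tested 85 did (0.507%), of which 38 (0.227%) rose and 47 (0.28%) fell with brightness. That count rests on single arrays: it was 539 without WD1, 206 without CD3 and 0 without any other single array. Mbd3 passed without WD1 (adjusted p = 0.0403) and without CD3 (adjusted p = 0.0365). With diet in the fit no gene passed (0 of 16765, 0%, with 1977 at an unadjusted p under 0.05), and the Mbd3 slope was 0.56 ± 0.17 (limma adjusted p = 0.368).

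With array brightness as a covariate, the diet difference of Mbd3 was -0.28 ± 0.20 (SE, 95% interval -0.73 to 0.16), 40.8% of its size without the covariate. That of Hdac1 was 0.19 ± 0.26, 41.6% of its size. That of Hdac3 depended on the probe: it was -0.34 ± 0.20 (95% interval -0.79 to 0.10), or 80.5% of its size, on the brighter probe, and -0.39 ± 0.17, against -0.71 without the covariate, on the dimmer one. The other 5 genes had differences between -0.16 (Dnmt3a) and 0.08 (Mbd1), and the sign turned for Dnmt1 (-0.13), Mbd1 (0.08) and Hdac2 (-0.14). At an unadjusted limma p under 0.05 the count was 0 of 8, against 960 (5.73%) of all genes, and 0 genes (0%) had an adjusted p under 0.05. These counts take each gene by its brighter probe. The dimmer Hdac3 probe had a limma p of 0.0431 before and 0.856 after adjustment over all kept probes. Diet and brightness overlap in these 10 arrays, and with 5 arrays a group their shares in the Mbd3, Hdac1 and Hdac3 values cannot be told apart.

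**Figure D3:**
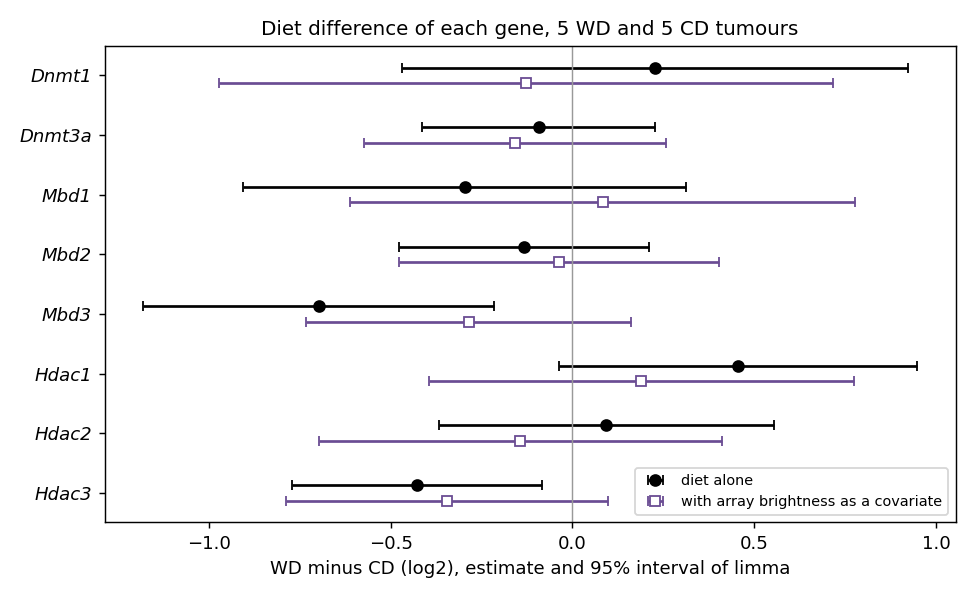
Diet difference of each gene, WD minus CD on the log2 scale (horizontal), as limma estimates with 95% intervals over 5 WD and 5 CD tumours, for diet alone (filled circles) and with array brightness as a covariate (open squares). The estimate of Mbd3 is -0.28 with the covariate and -0.70 without it, and that of Hdac3 is -0.34 with it and -0.43 without it.

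Of 11 T and NK cell markers on the array 5 passed the filter (Cd3d, Cd3e, Cd3g, Nkg7 and Zap70), and all 5 had higher means in WD, with a mean level over them of 0.63 to 2.31 in WD and 0.17 to 1.14 in CD tumours. All 9 measured macrophage markers of 10 had higher means (1.40 to 3.60 in WD and 1.88 to 2.74 in CD), as were all 10 fibroblast markers (1.73 to 3.50 in WD and 1.29 to 2.79 in CD) and both measured endothelial markers of 4 (-0.67 to 0.16 in WD and -1.06 to -0.13 in CD). Of the 12 measured epithelial markers 8 had lower means in WD, as had 5 of 6 mast cell markers (-2.01 to 0.61 in WD and -0.37 to 1.02 in CD). Over all genes, 48.6% had a lower mean in WD. Over the 10 tumours, the median slope on brightness was 0.27 for the epithelial, -0.74 for the T and NK cell and -0.45 for the fibroblast markers. It was -0.03 over all genes. No marker passed the adjusted threshold in either fit, and their part in the values of Mbd3, Hdac1 and Hdac3 was not tested. In bulk tumour RNA, fewer cells of a type and less RNA of a gene per cell cannot be told apart.

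Among the 8 genes, the highest positive correlations across the tumours were those of Mbd3 with Hdac3 and of Hdac1 with Hdac2. Each gene was taken by its brighter probe. The probes of Hdac2 followed each other little (r = 0.067), as did those of Dnmt1 (r = 0.057). The dimmer probes of both were not compared with other genes. Mbd3 and Hdac3 had an r of 0.803 and a rho of 0.782 (permutation p = 0.00495 and 0.0101). The r was 0.780 without the 2 tumours farthest from the median of Mbd3 and 0.438 without the 2 farthest from that of Hdac3. Hdac1 and Hdac2 had an r of 0.750 and a rho of 0.830 (permutation p = 0.0127 and 0.00485), and an r of 0.799 without the 2 tumours farthest in Hdac1. Hdac1 had an r of -0.760 and a rho of -0.818 with Mbd3, and an r of -0.803 and a rho of -0.806 with Mbd1. Dnmt1 had an r of -0.710 with Mbd3, and of -0.309 without the 2 tumours farthest in Dnmt1. Of the 28 pairs of the 8 genes, none had a permutation p under 0.05 after adjustment over all genes tested (lowest 0.0573, for the rho of Hdac1 with Hdac2). All of these pairs share the 10 arrays and their brightness.

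**Figure D4:**
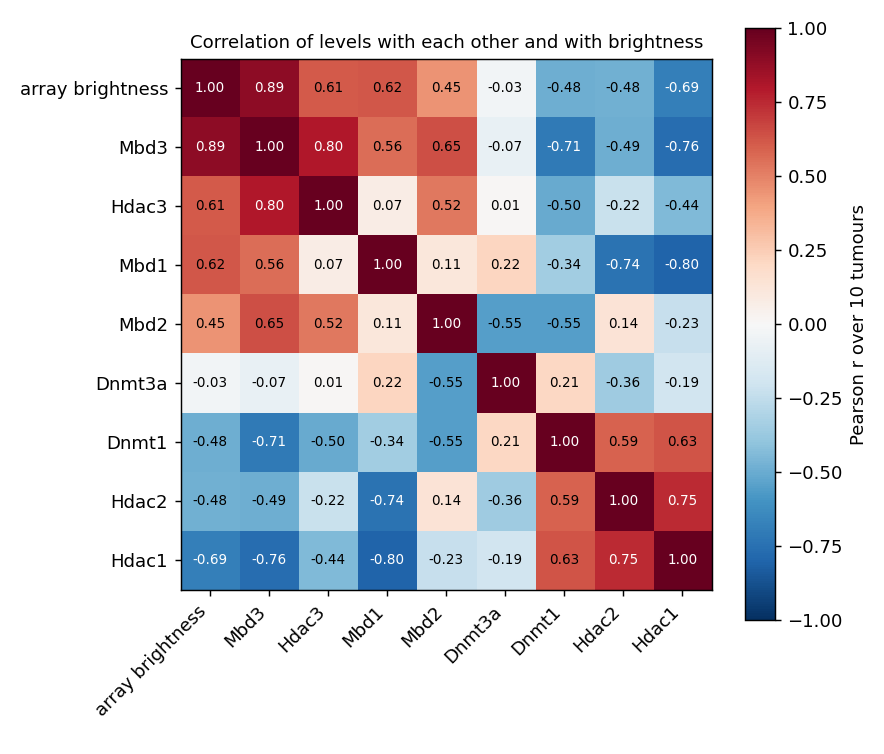
Pearson r over the 10 tumours between the levels of the 8 genes, and of each with array brightness (first row and column), from -1 (blue) to 1 (red). Each gene is taken by its brighter probe. Brightness, Mbd3 and Hdac3 are red among themselves and blue against Hdac1, Hdac2 and Dnmt1.

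For Mbd3, 970 of 16764 genes (5.79%) had a correlation past an adjusted permutation p of 0.05, 516 of them positive and 454 negative. The counts were 785 (4.68%) for Hdac1, 398 of them positive, 209 (1.25%) for Hdac2, 175 of them positive, and 17 (0.101%) for Hdac3, 13 of them positive, and 0 for the other 4 genes, whose lowest adjusted p ran from 0.0559 (Mbd1) to 0.461 (Mbd2). The named genes closest to Mbd3 were Mapk7, a MAP kinase also called ERK5 (r = 0.983), Oaz1, the antizyme that limits polyamine synthesis (r = 0.965), and Poldip3 (r = 0.961). Those 3 had r of 0.886, 0.872 and 0.896 with array brightness, close to the 0.892 of Mbd3.

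Closest to Hdac1 were Aimp1, a scaffold of the tRNA synthetase complex (r = 0.959), the transcription elongation factor Tcea1 (r = 0.959) and Rabgap1 (r = 0.957). Closest to Hdac2 were Ndufb3, a subunit of respiratory complex I (r = 0.985) and the proteasome ATPase Psmc5 (r = 0.962). For Hdac3 they were Tmem9b (r = 0.972), the forkhead factor Foxn3 (r = 0.961) and the ubiquitin-conjugating enzyme Ube2r2 (r = 0.960). The r of these 8 genes held between 0.888 and 0.958 without the 2 tumours farthest in Hdac1, Hdac2 or Hdac3.

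The gene closest to Dnmt1 was Slbp, which binds the stem-loop of replication-dependent histone mRNAs (r = 0.977, adjusted permutation p = 0.126), followed by Cep44 (r = 0.967) and Zfyve9 (r = 0.954). Trrap, a scaffold of histone acetyltransferase complexes, was closest to Mbd1 (r = 0.963), with Adck5 (r = 0.954) and Bbx (r = 0.951) after it. Dhx15, Psmd12 and Fcf1 were closest to Mbd2 (r = 0.916, 0.900 and 0.882), and Bcl9l, Amn1 and Mcf2l to Dnmt3a (r = 0.892, 0.871 and 0.869).

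Other genes of DNA methylation, deacetylation and related histone marks were taken from 8 lists holding 84 measured genes. Past the adjusted permutation threshold of likeness to Mbd3 were 5 of the 84 (5.95%), close to its share of all genes. They were the class IIa deacetylase Hdac5 (r = 0.912), the sirtuin Sirt6 (r = 0.910), the histone methyltransferase Ehmt2 (r = 0.889), the Sin3 complex subunit Sap18 (r = 0.888) and the arginine methyltransferase Prmt5 (r = 0.871). For Hdac1 they were 3 of the 84 (3.57%), the acetyltransferase Kat6a (r = 0.955), the NCoR subunit Tbl1x (r = 0.901) and Prmt5 (r = -0.850). For Hdac2 they were 2 of the 84 (2.38%), the histone-binding subunit Rbbp4 (r = 0.933) and Tbl1x (r = 0.874). For Hdac3 there were 0. With array brightness, Hdac5 had an r of 0.833, Sirt6 of 0.822, Prmt5 of 0.844, Ehmt2 of 0.800, Sap18 of 0.790, Kat6a of -0.792 and Tbl1x of -0.770. Rbbp4 had an r of -0.272 with it.

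None of the 84 genes passed the adjusted threshold between the diets. For the counts below, 48.6% of all genes tested had a lower mean in WD. Of 6 other DNA methylation readers and writers, 2 were lower and 4 higher in WD, with a median of 0.05. The smallest p belonged to the chromatin remodeller Hells (0.35 ± 0.46) and the reader Zbtb33, also called Kaiso (0.13 ± 0.29). Of 7 genes of DNA demethylation, 5 were lower (median -0.10). The damage-response gene Gadd45b had a difference of 0.71 ± 0.24 (limma adjusted p = 0.219), and its relative Gadd45g of 0.53 ± 0.25. The groups did not overlap for Gadd45b, nor for 1 of the 12 histone methylation enzymes, which was lower in WD. Over all genes tested the share without overlap was 3.64% (2.3% lower and 1.34% higher in WD). Of 11 genes of the S-adenosylmethionine cycle, which supplies the methyl groups, 7 were lower (median -0.09). Bhmt, which remethylates homocysteine with betaine, had a difference of 0.73 ± 0.18 (limma adjusted p = 0.181), and Ahcyl2 of -0.63 ± 0.21 (limma adjusted p = 0.214).

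Of 8 other histone deacetylases, 4 were lower and 4 higher, with a median of -0.01, and the smallest p belonged to Sirt6 (-0.67 ± 0.38) and Hdac5 (-0.43 ± 0.25). Of 18 subunits of the Hdac1, Hdac2 and Hdac3 complexes, 12 were lower (median -0.09). The Sin3 subunit Brms1 had a difference of -0.39 ± 0.16 (limma adjusted p = 0.285). Of 7 histone acetyltransferases, 4 were lower (median -0.03), and the smallest p belonged to Kat7 (-0.36 ± 0.17) and Hat1 (-0.35 ± 0.18). Of 12 histone methylation enzymes, 10 were lower (median -0.12), with Prmt5 at -0.59 ± 0.20 (limma adjusted p = 0.223) and the demethylase Kdm2a at 0.45 ± 0.15 (limma adjusted p = 0.223).

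Of 15 DNA replication and cell cycle genes, 14 were lower in WD, against 48.6% of all genes. Their median difference was -0.59, against 0.01 over all genes. At an unadjusted limma p under 0.05 the count was 2 of the 15, against 2599 (15.5%) of all genes, so it was near that share. The median slope of the list on brightness was 0.54, against -0.03 over all genes. The part of brightness in these differences was not tested. The helicase subunit Mcm7 had a difference of -0.78 ± 0.23 (limma adjusted p = 0.186) and the mitotic kinase Aurka of -1.07 ± 0.40 (limma adjusted p = 0.253). On its brighter probe Dnmt1, which works at replication forks, had a positive r with 14 of these 15 genes (range -0.07 to 0.59, median 0.33). However, the diet difference of Dnmt1 itself was 0.23 on that probe and -0.25 on the dimmer one. Mbd1 (median 0.36) and Dnmt3a (median 0.32) also had a positive r with 14 of the 15, and Mbd3 (median 0.19) and Hdac3 (median 0.30) with 13. The median r was -0.07 for Mbd2, -0.12 for Hdac1 and -0.18 for Hdac2.

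**Figure D5:**
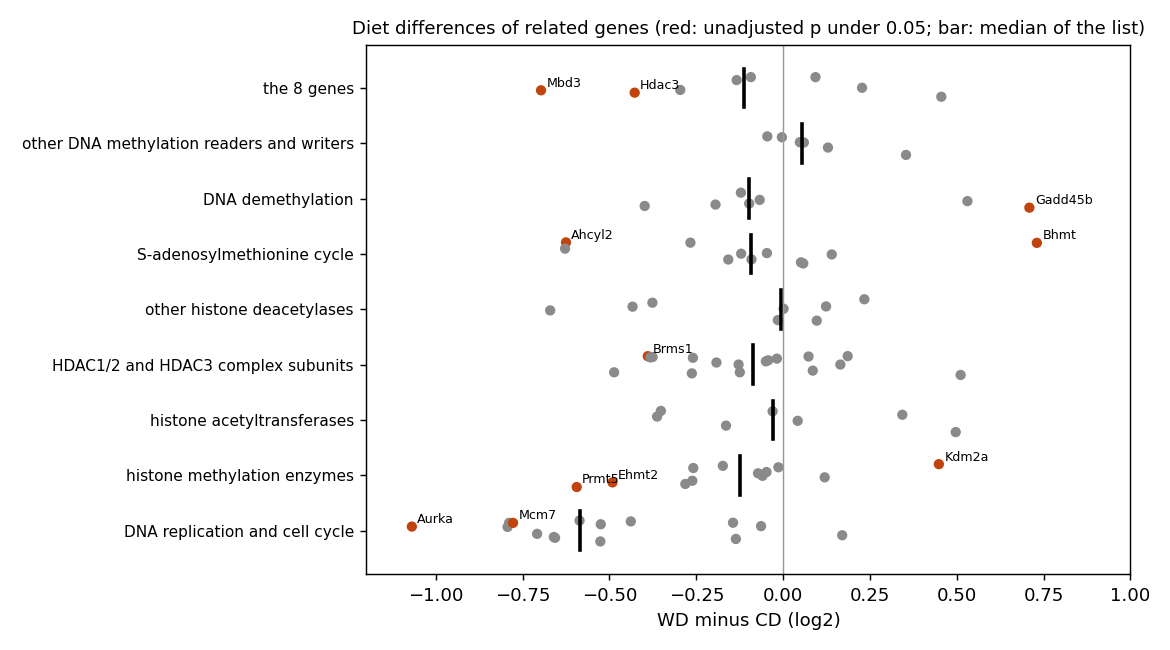
Diet difference, WD minus CD on the log2 scale (horizontal), of the 8 genes and of 8 lists of related genes, 1 point per gene (1 complex subunit is not drawn) with a bar at the median of each list and genes at an unadjusted limma p under 0.05 in red and named. Points lie on both sides of 0 in every list, and the median of the replication and cell cycle list is -0.59.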

How the data were processed

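RNA of 10 tumours was hybridised to 1-colour (Cy3) 4x44K arrays, 200 ng each, per the labels. The deposited array files hold background-subtracted spot intensity, read with Agilent Feature Extraction (11.5.1.1 per the file headers, 15.5 per the submitters' processing notes), and marks of 0 or 1 for well above background, outlier and saturated spots. No spot of these genes was saturated. The deposited series matrix holds log2 values whose ranks equal each array's median signals. The number of arrays limits the precision.

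Control and outlier spots were left out, spots of a probe averaged, and the 75th percentile subtracted after log2. Probes well above background on at least 5 of 10 arrays were kept (19726), 1 per gene by highest mean (16765 genes, 8261 with a symbol). Symbols came from RefSeq GRCr8, which matched 17502 of 41012 probes (42.7%). Diet and array brightness were fitted with limma 3.58.1 (R 4.3.3) and Benjamini-Hochberg adjustment over all genes. Correlations used 100000 permutations (Python 3.11.15, numpy 2.4.6). The fits were tested on simulated data. Arrays lay on 3 slides, each with its own scan. The genes and lists were chosen with earlier results of these data known. Named are all probes of the 8 genes, the 2 related genes of smallest diet p in each list, the 3 genes of highest r with each gene, and related genes past a threshold. Of these, 2 genes are not reported here. Alternatives were other scalings, background corrections, filters, probe rules, slide and replicate blocks, brightness measures and leaving out each tumour. Those joining the brightness covariate with a left-out tumour, and quantile normalization with diet, were chosen after seeing the data.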

Additional observations from a re-analysis of the deposited data

Results flagged for a closer look

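The brightness of CD3 lay far from that of the other CD arrays. Its log2 75th percentile was 6.41, against 7.56 to 7.82 on the other 4 CD arrays, and the gap took 0.815 of the range of the group, above the critical value of 0.71 for 5 samples. It was the only one found among 24 such tests on array brightness and on the 11 probes in each group, and chance gives about 1 in 20. CD3 also had the lowest Mbd3 level of the CD group, 2.18. Without CD3 the diet difference of Mbd3 was -0.80 ± 0.22 (SE, limma adjusted p = 0.135).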

How the results depend on the processing

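The numbers of tumours and the overlap of brightness with diet limit all values here, and no setting gave a diet call. The count of genes with an adjusted p under 0.05 for diet was 0 under every setting run, leaving out each tumour included. With normexp background correction 496 genes had an unadjusted p under 0.05, 0 of the 8 genes among them. With the replicate number as a block the count was 0, with 2673 genes at an unadjusted p under 0.05, and Mbd3 remained at -0.70. Tumours of the same number had deviations correlating between -0.02 and 0.16, and none correlated best with its own number. These values gave no sign of pairing by number, but so few correlations cannot exclude it. Mbd3 and Hdac3 stayed lower and Hdac1 higher in WD under every setting, but the sizes varied. With the brightness covariate and CD3 left out, the difference was -0.074 for Mbd3, -0.36 for Hdac3 and 0.072 for Hdac1. Without the covariate, leaving out each tumour gave -0.82 to -0.55 for Mbd3, -0.50 to -0.33 for Hdac3 and 0.34 to 0.61 for Hdac1. It gave -0.50 to -0.13 for Mbd1, -0.19 to -0.035 for Mbd2 and -0.16 to -0.013 for Dnmt3a.

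The count of 85 genes with a brightness slope was 158 with quantile normalization, 151 with the mean of the probes of a gene and 3 without WD2 and WD3. Other filters changed the number of genes tested. The count was 11634 of 36022 without a filter on dim probes, 919 rising and 10715 falling with brightness. It was 180 of 12511 with probes well above background on all arrays. It was 0 with normexp, the series matrix, slide as a block, diet as a covariate (with either scaling) and brightness taken as median raw signal, and 0 to 539 when leaving out each tumour. The Mbd3 slope passed the threshold under 6 of the settings, and also in the limma fit over all kept probes (adjusted p = 0.0471).

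Signs turned for genes whose differences were small. For Dnmt1 the diet difference was -0.011 with the mean of its probes, -0.13 with brightness as a covariate and -0.040 to 0.39 when leaving out each tumour. With the covariate and a tumour left out it was 0.057 (WD1), -0.24 (WD2), -0.12 (WD3), -0.11 (WD4), -0.048 (WD5), -0.023 (CD1), -0.17 (CD2), -0.55 (CD3), -0.20 (CD4) and -0.094 (CD5). For Hdac2 it was -0.015 with the mean of its probes, -0.14 with the covariate and -0.053 to 0.21 when leaving out each tumour. With the covariate and a tumour left out it was -0.017 (WD1), -0.14 (WD2), -0.14 (WD3), -0.19 (WD4), -0.33 (WD5), -0.12 (CD1), -0.21 (CD2), 0.049 (CD3), -0.16 (CD4) and -0.11 (CD5). For Mbd1 it was 0.084 with the covariate and, with a tumour left out too, -0.14 (WD1), 0.036 (WD2), 0.11 (WD3), 0.18 (WD4), 0.35 (WD5), 0.041 (CD1), 0.12 (CD2), 0.054 (CD3), 0.074 (CD4) and 0.091 (CD5). With the covariate, Dnmt3a turned to 0.047 without WD5, and Mbd2 to 0.0047 without WD2 and 0.21 without CD3.

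Brightness slopes turned with median raw signal as brightness for Dnmt1 (0.41), Dnmt3a (0.35), Mbd2 (-0.18) and Hdac3 (-0.033), and with normexp for Mbd1 (-0.0063). The slope of Dnmt3a also turned with quantile normalization (0.055), the median subtracted in place of the percentile (0.0032), slide as a block (0.023) and without WD2 and WD3 (0.11), and was -0.053 to 0.044 when leaving out each tumour. The cause was not tested in any of these.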
